A study of Mus musculus with 22 samples.

Results

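Ighv11-2 is a heavy chain V segment of the mouse Igh locus. Its members here were every retained sequence whose first V segment name was IGHV11-2, and 550 of the 17178 sequences in the 22 libraries met that rule. They came from 21 of the 22 libraries and from all 11 mice, with 332 in the PBS extravascular, 115 in the UPEC extravascular, 30 in the PBS intravascular and 73 in the UPEC intravascular libraries. All were assigned to this segment alone, with no second V name. A sequence here is a distinct V-D-J region with at least 2 reads, and a clonotype is the set of sequences of 1 library with the same CDR3 nucleotides (conserved flanking codons included), V segment and J segment.

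The libraries came from WT C57BL/6 female mice aged 8 to 10 weeks whose bladders were inoculated 2 times with PBS (6 mice) or with UPEC, uropathogenic Escherichia coli (5 mice). Kidneys were taken at day 56. An antibody to CD45 injected 3 min before death labelled cells in blood vessels, so that B cells without the label were sorted as extravascular and B cells with it as intravascular, and each mouse gave 1 library of each kind. Igh transcripts were amplified from RNA with barcoded isotype primers and V segment primers. The sort took kidney B cells as a whole and did not separate B-1a cells, organs were not perfused, and in such bulk RNA fewer cells of a clone and less RNA per cell cannot be told apart. Depth ranged from 244 to 2134 sequences and from 936 to 18956 reads a library.

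Every B cell builds its heavy chain gene by joining 1 V, 1 D and 1 J segment, and the junction forms CDR3, the most variable loop of the antigen binding site. The enzyme TdT adds non-templated N nucleotides at the joints. TdT is little expressed in the fetal liver, where many B-1a cells arise, so junctions formed there tend to have few N nucleotides and to follow short stretches of bases that the ends of the segments share. Ighv11-2 and Ighv12-3 are known for their use by B-1a cells whose receptors bind phosphatidylcholine, a membrane lipid exposed on senescent red blood cells. Neither CD5 nor antigen binding was measured in these tables, so the cell type could be checked only by the known form of this receptor, Ighv11-2 joined to Ighj1 with the CDR3 MRY, S or G, NYWYFDV, which is called canonical below.

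The germline segments that build this receptor lie on chromosome 12 on the minus strand (GRCm38, GENCODE vM21). The Ighv11-2 gene spans chr12:114048241-114048812, with its leader exon at chr12:114048659-114048812 and its V region in exon 2 at chr12:114048241-114048547. Ighd1-1 lies at chr12:113482170-113482192, Ighd2-5 at chr12:113466027-113466043, Ighd2-8 at chr12:113450851-113450867 and Ighj1 at chr12:113429781-113429833. They are shown because the junctions below are nearly complete without any other base, and capitals mark the bases found in the junction of 1 of the 3 most frequent CDR3s.
Ighv11-2 3′ end from the conserved cysteine codon: TGTATGAGATA
Ighd2-5: cctacTATAGTAACTAC
Ighd2-8: tctacTATGGTAACTAC
Ighd1-1: tttattacTACGGTAGTAGCTAC
Ighj1: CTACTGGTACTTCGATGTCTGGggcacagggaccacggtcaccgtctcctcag

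The 3 junctions with the most sequences follow, each from the cysteine to the tryptophan codon, with the longest exact match to a germline D segment in capitals.
MRYSNYWYFDV: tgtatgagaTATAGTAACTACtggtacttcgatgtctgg
MRYGNYWYFDV: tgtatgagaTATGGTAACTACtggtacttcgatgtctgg
MRYGSSYWYFDV: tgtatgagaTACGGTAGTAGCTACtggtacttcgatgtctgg

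These 3 junctions held no base that the germline segments did not supply. In the junction of MRYSNYWYFDV, counted from 1 at the cysteine codon, Ighv11-2 matched up to position 11, Ighd2-5 from position 10 to 21 and Ighj1 from position 18 on, so the V and D segments shared 2 bases and the D and J segments 4. The junction of MRYGNYWYFDV had the same positions with Ighd2-8, and differed from the former in the D segment alone. The tables name that D segment IGHD2-1, and in GRCm38 the matching sequence is annotated as Ighd2-8. Ighd2-6 has the same sequence as Ighd2-5, so these 2 cannot be told apart. MRYGSSYWYFDV used Ighd1-1, again with 2 bases shared with the V segment and 4 with Ighj1. Over all members, 8 of 68 distinct junctions, with 417 of the 550 sequences (75.8%), could be laid out from V, D and J bases with none left over when D matches of at least 4 bases were allowed.

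The member with the most reads, found with 212 among the extravascular sequences of PBS mouse 4, is given to show the receptor itself, from its last 300 bases and with its CDR3 in capitals.
Ighv11-2, Ighd2-8, Ighj1: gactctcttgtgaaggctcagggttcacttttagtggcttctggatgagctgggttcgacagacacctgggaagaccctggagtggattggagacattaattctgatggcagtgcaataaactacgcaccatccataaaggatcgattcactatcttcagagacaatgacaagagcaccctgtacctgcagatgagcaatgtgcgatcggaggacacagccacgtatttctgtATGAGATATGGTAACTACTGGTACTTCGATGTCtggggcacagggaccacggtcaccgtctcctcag

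The whole sequence was 322 bases long, had 0 mismatches to the germline V segment up to the CDR3, and was found base for base in 5 libraries of 5 mice.

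The share of Ighv11-2 among the distinct sequences of a library was compared between compartments and treatments. In the extravascular libraries of PBS mice 1 to 6 it was 5.72%, 1.26%, 5.15%, 6.85%, 2.67% and 2.00%. In the intravascular libraries of the same mice it was 2.41%, 0.998%, 0.803%, 1.09%, 0.872% and 0%. The extravascular share was the higher in all 6 PBS mice, by a mean of 2.91 ± 1.97 percentage points (SD, n = 6), with means of 3.94% ± 2.26 and 1.03% ± 0.782. Ighv11-2 was selected for description with this difference known, so no test is given for it. None of the 611 intravascular sequences of PBS mouse 6 was a member, which allows a share of up to 0.491%, so its extravascular share was at least 4.08-fold higher against that limit of 3 counts. The Wilson 95% interval of its extravascular share reached from 1.34% to 2.99% and did not overlap that of the intravascular share. In PBS mice 2 and 5 the Wilson 95% intervals of the 2 compartments overlapped. They were 0.801% to 1.99% and 0.389% to 2.54% in mouse 2, and 1.73% to 4.08% and 0.297% to 2.53% in mouse 5. Such intervals cover counting error only, since reads and sequences are not independent cells. When sequences 1 nt from a more abundant one of the same clonotype were merged, the mean difference in PBS mice was 5.21 percentage points. The extravascular share of PBS mouse 1 alone went from 5.72% to 13.3%. Merging removed 35.3% of all sequences and 23.1% of members, so it also changes the total behind each share.

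In UPEC mice 1 to 5 the extravascular share was 4.51%, 1.17%, 3.18%, 5.11% and 2.69%. The intravascular share was 0.836%, 0.865%, 0.517%, 5.97% and 2.12%. In 4 of 5 UPEC mice the extravascular library had the larger share. The mean difference of 1.27 ± 1.85 percentage points (SD, n = 5) did not pass the exact signed-rank test on matched pairs, taken as two-sided (p = 0.3125), which cannot go below 0.05 with 5 pairs. Mouse 4 of the UPEC group ran the other way and also held 56 of the 73 UPEC intravascular members. Leaving out 1 mouse at a time gave mean differences from 0.668 percentage points, without UPEC mouse 1, to 1.80, without UPEC mouse 4, and none passed the exact test. Merging sequences 1 nt apart turned the order in UPEC mouse 4, to 5.39% extravascular and 3.33% intravascular. The merged difference was then 2.25 percentage points and higher in all 5 mice, the strongest result that 5 pairs can give in this exact test and still not past its threshold.

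**Figure D1:**
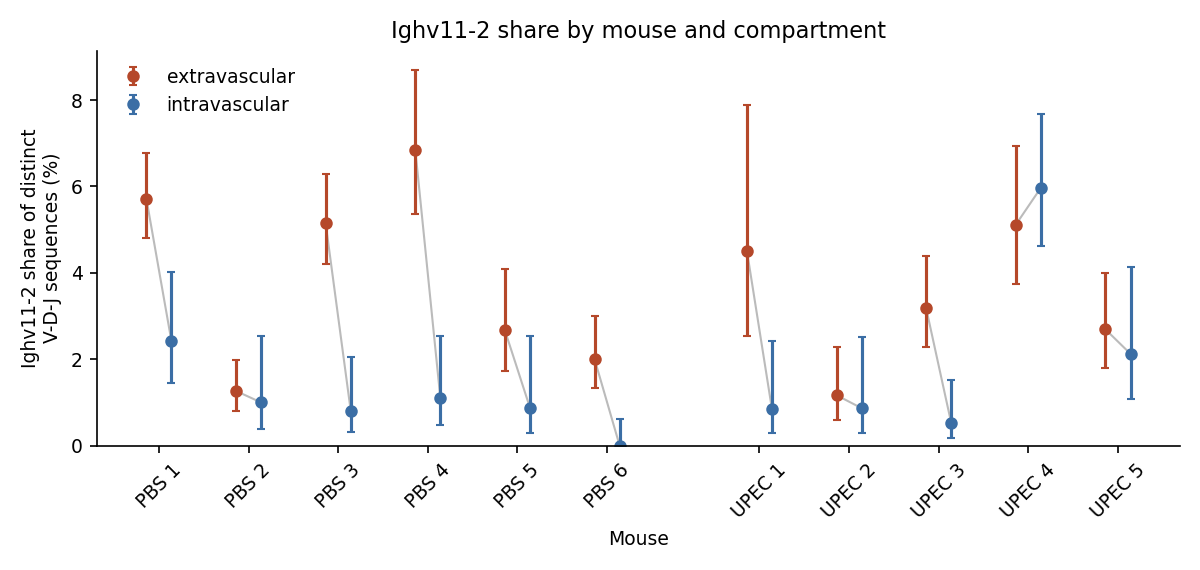
Share of Ighv11-2 among the distinct V-D-J sequences (percent) of the extravascular and intravascular library of each mouse, with Wilson 95% intervals for counting error and a line joining the 2 libraries of a mouse. The extravascular point is the higher in every mouse but UPEC 4, where the shares were 5.11% and 5.97%.

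No difference between treatments passed its test. The extravascular share was 3.33% ± 1.56 (SD, n = 5) in UPEC mice against 3.94% ± 2.26 in PBS mice (n = 6), which is -0.61 percentage points apart (Mann-Whitney U test, exact and two-sided, p = 0.662). The intravascular share was 2.06% ± 2.27 against 1.03% ± 0.782, which is 1.03 percentage points apart (same exact test, p = 0.931). Leaving out UPEC mouse 4 took the intravascular difference to 0.0548 percentage points. The compartment difference itself was 1.64 percentage points smaller in UPEC mice (permutation test over every assignment of the mice, exact and two-sided, p = 0.197). The extravascular difference between treatments was 0.111 percentage points, of opposite sign, with reads in place of sequences and -2.49 with sequences 1 nt apart merged (exact Mann-Whitney U test, p = 0.429). For the compartment difference, UPEC minus PBS, the alternatives reached from -0.54 with at least 3 reads per sequence (exact permutation test, p = 0.727) to -2.95 after merging (exact permutation test, p = 0.104).

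The same shares were tested together with those of all other segments in limma on log2 shares. Of 17 segments with at least 10 sequences in at least 3 libraries, 0 were called between UPEC extravascular and intravascular libraries at an adjusted p under 0.05 (percent called 0%), and 3 had an unadjusted p under 0.05. The log2 difference for Ighv11-2 was 1.06 ± 0.92 (SE, n = 5 mice, limma adjusted p = 0.632). Between UPEC and PBS extravascular libraries 0 of 17 segments were called (percent called 0%), with 1 at an unadjusted p under 0.05, and the log2 difference of Ighv11-2 was -0.16 ± 0.81 (SE, limma adjusted p = 0.841), or -0.92 ± 0.85 with the log2 shares centred on their median (limma adjusted p = 0.627). In the intravascular libraries limma called 0 of 14 segments (percent called 0%), with 1 at an unadjusted p under 0.05, and Ighv11-2 was below the filter on rare segments. Without that filter its log2 difference was 0.88 ± 0.77 (SE, limma adjusted p = 0.795).

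By number of sequences, Ighv11-2 ranked between 4 and 12 among the V segments of the extravascular libraries and between 5 and 19 in the 10 intravascular libraries that held it. Of the 5 Ighv11 and Ighv12 segments looked for, IGHV12-3 held 3216 sequences in all 22 libraries, IGHV11-1 held 2 and IGHV12-1 and IGHV12-2 held 0. The share of Ighv12-3 was 21.6% on average in PBS extravascular (1.05% to 39.3%, n = 6) and 3.65% ± 1.41 in PBS intravascular libraries. Over the 22 libraries it had the share most like that of Ighv11-2 among 7 common segments (Spearman's rho 0.64), followed by IGHV5-17 (0.0062) and IGHV3-5 (-0.20). These libraries share the split into compartments, and Ighv12-3 was not the most alike segment within either. Within the 11 extravascular libraries rho was 0.25 for Ighv12-3 and 0.27 for IGHV3-1, and within the 11 intravascular libraries it was 0.42 for Ighv12-3, 0.45 for IGHV5-17 and 0.47 for IGHV3-5. PBS mouse 6 had 1.05% Ighv12-3 beside 2.00% Ighv11-2 in its extravascular library.

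The amino acid sequences of CDR3 were few. The 550 members had 55 different CDR3s, of which 32 were seen in 1 sequence, and 387 members (70.4%) were canonical. Of the 2 canonical forms, MRYSNYWYFDV held 208 sequences and was found in all 21 libraries with members, and MRYGNYWYFDV held 179 in 19 libraries, and each was found in all 11 mice. The first was encoded by 4 different junctions and the second by 4, but 199 of 208 and 170 of 179 sequences had the junction shown above, which occurred in 11 and 10 mice respectively. A form open to any 2 or 3 residues between MRY and YWYFDV took in 505 members (91.8%). CDR3s of 11 residues made up 451 members and CDR3s of 12 residues 95.

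Other CDR3s found in at least 3 libraries or with at least 10 sequences were MRYGSSYWYFDV (42 sequences, 9 mice), MRYDSNYWYFDV (17 sequences, 5 mice), MRYGGYWYFDV (14 sequences, 3 mice), MRYSSYWYFDV (6 sequences, 5 mice), MRYDGYYWYFDV (4 sequences, 3 mice) and MRYGNYWYCDV (3 sequences, 2 mice). MRYGSSYWYFDV, MRYDSNYWYFDV and MRYDGYYWYFDV have 1 residue more than the canonical form. The 6 sequences of MRYSSYWYFDV had the same junction in all 5 mice, and so did the 17 of MRYDSNYWYFDV. The 45 members outside the open form had 31 CDR3s, among them MRYGNHWYFDV and MGYSNYWYFDV, with a median of 2 reads and at most 26. Members inside the open form also had a median of 2 reads. Among the 16628 sequences of other V segments, 10 carried a canonical CDR3. Of these, 9 had 2 or 3 reads and 2 to 12 mismatches in V segments such as IGHV3-8 and IGHV3-1, and the tenth had 8 reads, no mismatch and the segment IGHV11-1.

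The mix of forms differed from mouse to mouse. The canonical share of members in the extravascular libraries was 68.0%, 33.3%, 96.6%, 75.4%, 20.0% and 43.5% in PBS mice 1 to 6 and 72.7%, 75.0%, 62.9% and 92.1% in UPEC mice 1 to 4. In UPEC mouse 5 only 3 of 23 were canonical. PBS mouse 3 had 61 sequences of MRYSNYWYFDV and 24 of MRYGNYWYFDV among 88, while PBS mouse 4 had 11 and 35 among 61. The canonical share was 63.1% ± 29.9 in UPEC mice (SD, n = 5) and 56.1% ± 28.8 in PBS mice (n = 6), a difference of 7.01 percentage points that did not pass the exact Mann-Whitney U test (p = 0.931, adjusted p = 0.981). PBS mouse 5 had no MRYGNYWYFDV sequence in its extravascular library and 1 in its intravascular library.

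The compartments of UPEC mouse 4 carried different leading forms. Its extravascular library had 34 sequences of MRYSNYWYFDV and 1 of MRYGNYWYFDV, and its intravascular library had 9 and 42. The leading clonotype of each ranked 3 by number of sequences among all clonotypes of its library. Both forms were present in both libraries, with 2 complete V-D-J sequences in common.

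**Figure D2:**
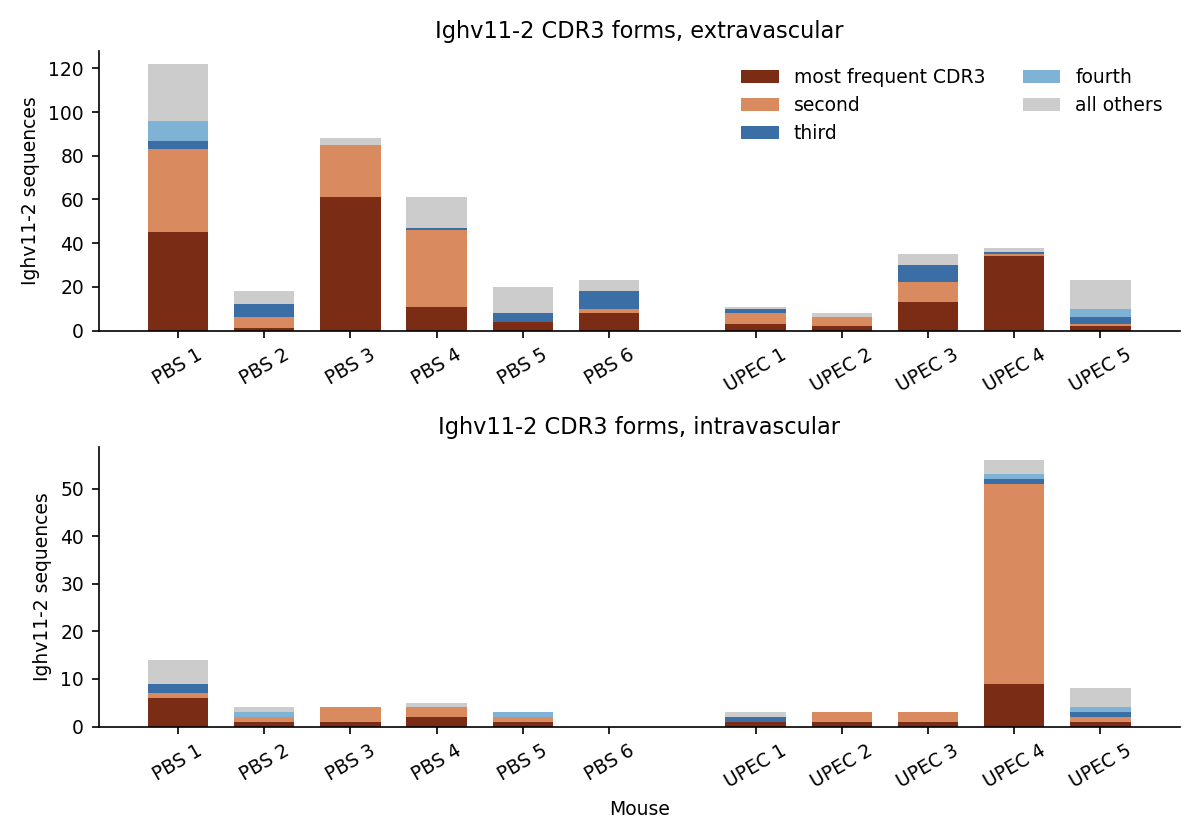
Number of Ighv11-2 sequences of each mouse in the extravascular (top) and intravascular (bottom) library, divided by CDR3 in the order MRYSNYWYFDV, MRYGNYWYFDV, MRYGSSYWYFDV, MRYDSNYWYFDV and all others. The extravascular bars reach from 8 to 122 sequences, and the tallest intravascular bar, UPEC 4 with 56, is mostly the second form.

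Clonotypes were compared within and between mice. Extravascular libraries held 4 to 24 Ighv11-2 clonotypes and intravascular libraries 0 to 8. In 10 of 11 mice at least 1 clonotype was found in both compartments, and the exception was PBS mouse 6, which had no intravascular members. The share of extravascular member sequences whose clonotype was also found intravascularly in the same mouse was 71.3%, 33.3%, 95.5%, 72.1%, 20.0% and 0% in PBS mice 1 to 6, and 45.5%, 75.0%, 48.6%, 94.7% and 47.8% in UPEC mice 1 to 5. Measured against the intravascular libraries of the other mice instead, the mean shares were 57.6%, 27.2%, 80.6%, 54.4%, 27.0% and 28.7%, and 66.4%, 50.0%, 51.1%, 83.2% and 16.1%. The own library gave the higher value in 7 mice and the other mice in 4 (PBS mice 5 and 6, UPEC mice 1 and 3), and this difference was not tested. PBS mouse 6 could only fall on the second side, since without intravascular members its own value is fixed at 0%.

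Sharing between mice was common for Ighv11-2 and rare for other segments. Of 68 Ighv11-2 clonotypes, compared here by junction, V and J over all libraries, 18 (26.5%) were found in at least 2 mice, 5 in at least 5 mice and 1 in all 11, and the 18 held 84.0% of member sequences. Of 6520 clonotypes of other segments 31 (0.475%) were found in at least 2 mice, 21 of them with Ighv12-3, and the most widespread was in 6 mice. Counted within each extravascular library, 65.3% ± 17.6 of Ighv11-2 clonotypes (SD, n = 11 mice) and 1.69% ± 1.95 of other clonotypes occurred in another mouse, and the former was higher in each of the 11 (signed-rank test over mice, exact and two-sided, p = 0.000977, the lowest value 11 pairs can give, Benjamini-Hochberg adjusted p over 10 measures 0.00244). Complete V-D-J sequences were shared as well. Of the 550 members 244 (44.4%) were identical over the whole sequence to one of another mouse, against 257 sequences (1.55%) of the other segments. Among these 244 members, 107 had a mismatch to the germline V segment. How identical sequences came to be in different mice was not tested.

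**Figure D3:**
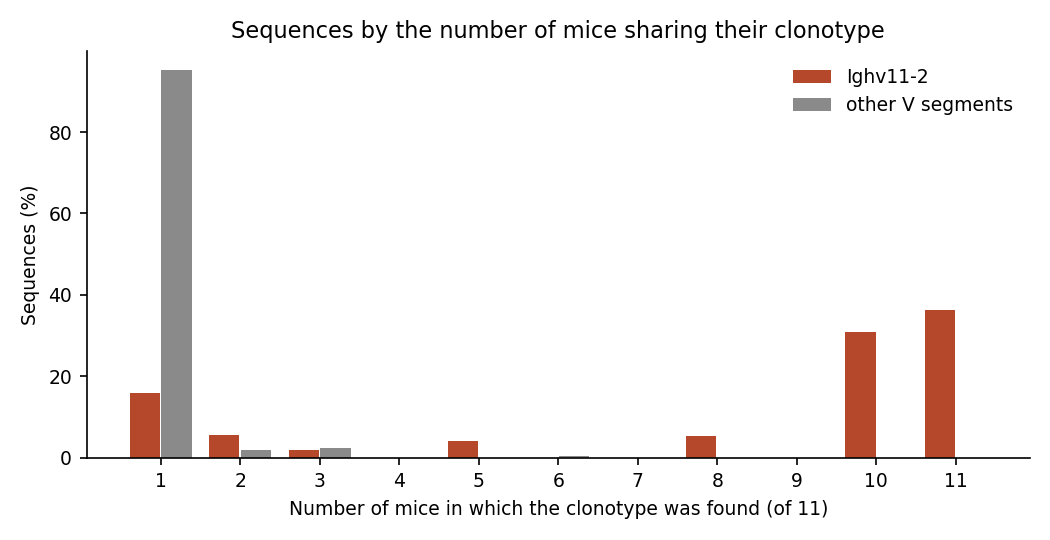
Percent of sequences by the number of mice, of 11, in which their clonotype was found, for Ighv11-2 (550 sequences) and all other V segments (16628 sequences). Sequences of other segments stand almost wholly at 1 mouse, whereas those of Ighv11-2 stand mostly at 10 and 11 mice.

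Ighv11-2 was joined to 1 J segment almost without exception. Ighj1 was used by 544 of 550 members (98.9%), Ighj3 by 3, Ighj4 by 2 and Ighj2 by 1. In the extravascular libraries the Ighj1 share of members was 100% in 10 mice and 91.3% in UPEC mouse 5, against 9.16% to 43.1% of the other sequences of the same libraries. The means were 99.2% ± 2.62 and 29.0% ± 11.3 (SD, n = 11), and every mouse showed this direction (same exact test, p = 0.000977, adjusted p = 0.00244). The mean difference of 70.2 percentage points was 80.6 with Ighv12-3 left out of the other segments. D segments were more varied. The tables gave IGHD2-5 to 248 members (45.1%), IGHD2-1 to 192 (34.9%), IGHD1-1 to 85 (15.5%) and 9 other names to the rest. In the extravascular libraries IGHD2-5 was the D segment of 48.5% of members and 5.95% of other sequences, and IGHD1-1 of 16.6% and 27.1%.

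N nucleotides were scarce. IMGT/V-QUEST found none in 469 of 550 members (85.3%), 43 had them between V and D, 50 between D and J and 12 at both joints, and the most in a member was 17. That member had 3 reads and the CDR3 MRYSNYWYFDV with a changed tryptophan codon, so that its exact J match began only at position 39. Of the 7 members with 10 or more N nucleotides, 4 were of this kind, with 1 base of an otherwise germline J stretch changed. The insert size, the mean number of N nucleotides a junction, was 0.828, 0.667, 0.0682, 0.393, 0 and 0.609 in the extravascular members of PBS mice 1 to 6, and 0, 0.375, 0.286, 0.368 and 1.96 in those of UPEC mice 1 to 5. The other sequences of these libraries had larger insert sizes, up to 6.17 in UPEC mouse 4. Ighv11-2 was the lower in 11 of 11 mice, with a mean of 0.505 ± 0.552 against 4.12 ± 1.33 (SD, n = 11, exact signed-rank test, p = 0.000977, adjusted p = 0.00244).

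The share of junctions without any N nucleotide was 84.6% ± 17.6 for Ighv11-2 and 22.6% ± 17.6 for the other segments (SD, n = 11), higher for Ighv11-2 in 11 of 11 (exact signed-rank test, p = 0.000977, adjusted p = 0.00244). UPEC mouse 5 had the lowest member value, 39.1%, and PBS mouse 1 the highest value for other segments, 61.0%. In PBS mouse 1 Ighv12-3 made up 39.3% of the library. With Ighv12-3 left out of the other segments, a comparison added after the values were seen, the mean difference was 69.6 percentage points in place of 62.0. Pooled over libraries, intravascular members had no N nucleotide in 87 of 103 cases (84.5%), and 6.88% of the 5261 other intravascular sequences with a D segment had none. UPEC mouse 4 gave 56 of these 103 members, and 92.9% of its members had none. In the other intravascular libraries with members, each with 3 to 14, the share ranged from 33.3% in PBS mouse 5 to 100%.

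**Figure D4:**
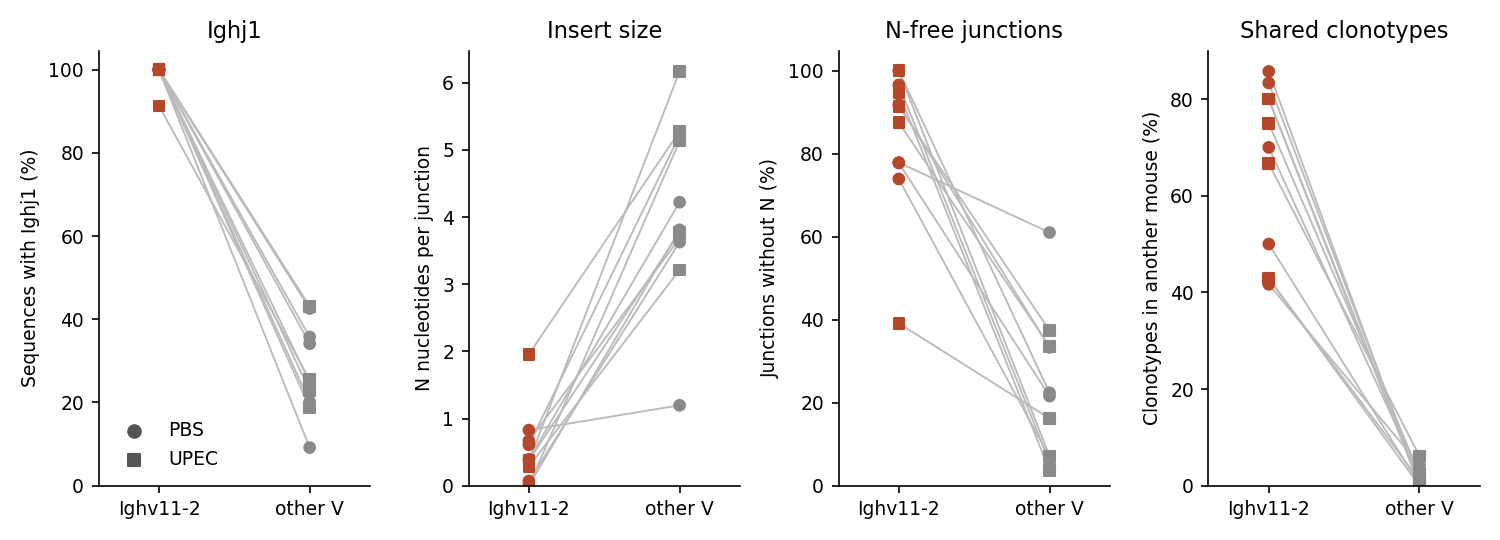
Measures of J use, N nucleotides and sharing in the 11 extravascular libraries, for Ighv11-2 members and for all other sequences of the same library, joined by a line for each mouse (circles PBS, squares UPEC). Ighv11-2 is higher in Ighj1 use (percent), lower in N nucleotides a junction, higher in N-free junctions (percent) and higher in clonotypes shared with another mouse (percent) in all 11 mice.

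CDR3 was slightly shorter in Ighv11-2. Its mean length in the extravascular libraries was 11.3 ± 0.223 amino acids against 11.7 ± 0.419 for the other sequences (SD, n = 11), shorter in 9 of 11 mice (signed-rank test, exact, p = 0.00488, adjusted p = 0.00698). Without Ighv12-3 among the other segments this difference was -0.274 amino acids and no longer passed (adjusted p = 0.343). Differences in the size of clonotypes and in the reads behind a sequence did not pass. Members had 4.66 ± 3.83 sequences a clonotype against 3.55 ± 1.42 (exact signed-rank test, p = 0.898), a difference of 1.11 that was 0.215 without PBS mouse 3, and 7.49 ± 1.07 reads a sequence against 7.30 ± 1.37 (exact signed-rank test, adjusted p = 0.875). After sequences 1 nt apart were merged, both measures passed the threshold, with differences of 1.65 sequences a clonotype (exact test, adjusted p = 0.0171) and -4.46 reads a sequence (exact test, adjusted p = 0.0206) for Ighv11-2.

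Within Ighv11-2 the values of UPEC and PBS mice overlapped on these measures. The insert size of extravascular members was 0.597 ± 0.775 in UPEC mice (SD, n = 5) and 0.427 ± 0.336 in PBS mice (n = 6), and the share of N-free junctions was 82.6% ± 24.7 and 86.3% ± 11.1. Neither difference, nor that of the Ighj1 share (98.3% ± 3.89 against 100%), passed the exact Mann-Whitney U test (p from 0.455 to 0.981, adjusted p = 0.981 for each). UPEC mouse 5 was the library with the most N nucleotides, and without it the difference in insert size changed sign, to -0.17. The compartments could be compared on at least 5 members each in only 4 mice, PBS mice 1 and 4 and UPEC mice 4 and 5, for which 0.125 is the smallest possible exact p. In these mice the extravascular and intravascular insert sizes were 0.887 ± 0.744 and 0.958 ± 0.611, and the canonical shares 62.1% ± 34.3 and 61.5% ± 29.9 (SD, n = 4).

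Isotype was read from 9 read counts in each sequence identifier. Only the name of the first, Igha, is given in full there, and the others are taken here to follow in alphabetical order, so that the last is Ighm. Of the 550 members 541 had all their reads in the last field, which held 99.4% of member reads. The remaining 9 had 2 to 4 reads each, 7 of them in the second field, taken as Ighd, 1 in the eighth, taken as Ighg3, and 1 in the Igha field. That Igha sequence came from the intravascular library of UPEC mouse 1 and had the CDR3 MGYDYDWFAY and Ighj3, unlike the canonical form. In the extravascular libraries 0 of 447 members had Igha reads, which allows a share of up to 0.671%, and 2.46% of the other 11239 sequences had them. By library the other segments had 0% to 16.2% Igha sequences. With 8 to 122 members a library, a count of 0 allows shares of up to 2.46% to 37.5%, and the other segments exceeded that limit in 1 library, UPEC mouse 5. Without this mouse the mean difference in Igha share went from -2.60 to -1.24 percentage points. The exact signed-rank test (adjusted p = 0.00326) therefore mainly compares 0 members with small shares that this number of members could not show. In the Ighd field the member mean was 1.07% ± 1.53 and that of other segments 8.04% ± 8.53 (SD, n = 11, exact signed-rank test, adjusted p = 0.00326), lower for Ighv11-2 in 10 of 11 mice. The other segments exceeded the limit for a count of 0 in 3 libraries, those of PBS mouse 4 and UPEC mice 1 and 4. In UPEC mouse 4 some members did have Ighd reads (2.63%), so this limit does not apply there. The mean difference of -6.97 percentage points was -4.49 without UPEC mouse 1, where 31.8% of the other sequences had Ighd reads, and -14.8 with each clonotype counted once. Over all intravascular libraries Ighd reads were found in 1.94% of 103 members and 14.5% of 5389 other sequences.

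Mismatches to the germline V segment were counted up to the CDR3. Over the complete placement the mismatch frequency of extravascular members was 0.283% ± 0.152 against 0.284% ± 0.0585 for the other segments (SD, n = 11, exact signed-rank test, p = 1). This value included 12 members, all extravascular and from 6 mice, with 8 to 16 mismatches that lay almost wholly in the first 30 nt of the sequence. With the first 30 nt left out of every sequence, a comparison added after these were seen, the frequency was 0.205% for Ighv11-2 and 0.307% for the other segments, lower in 10 of 11 mice (signed-rank test, exact, p = 0.0186, adjusted p = 0.0232). Members that could be placed then fell into few classes. Of 528, 224 had 0 mismatches, 301 had 1, 3 had 2 and 0 had 3 or more. Among the other segments 434 of 15326 sequences (2.83%) had 3 or more.

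The sequences with a mismatch had few reads. Members with 0 mismatches had a mean of 13.8 reads and up to 212, and members with 1 mismatch a mean of 2.43 and up to 13. Thus 42.4% of placed members, those without a mismatch, held 80.8% of their reads. Of the 307 mismatches outside the first 30 nt, 271 (88.3%) exchanged A and C or G and T, and 25 (8.14%) were transitions. Among other segments the same exchanges made up 78.7% of mismatches in sequences with 1 mismatch and 24.9% in sequences with 3 or more, where 51.8% were transitions. Of 136 different mismatches in Ighv11-2, 68 recurred in at least 2 mice, and they accounted for 235 of the 307. Counted from 1 at the first base of exon 2, A172C was found 10 times in 7 mice on 5 different CDR3s, and A148C 9 times in 6 mice on 4. Whether such mismatches arose in the cells or in the preparation of the libraries was not tested.

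**Figure D5:**
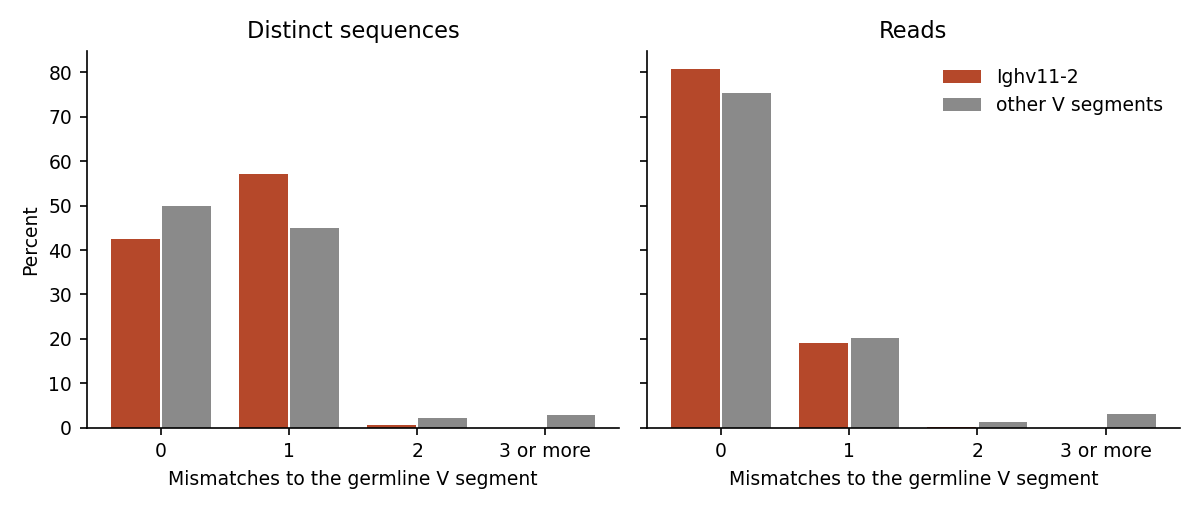
Percent of distinct sequences (left) and of reads (right) with 0, 1, 2 and 3 or more mismatches to the germline V segment, first 30 nt left out, for Ighv11-2 and all other V segments. Sequences with 1 mismatch are 57.0% of Ighv11-2 sequences but hold 19.1% of their reads.

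Mismatch frequency within Ighv11-2 was 0.241% ± 0.195 in UPEC and 0.318% ± 0.113 in PBS extravascular libraries (SD, n = 5 and 6, exact Mann-Whitney U test, p = 0.429, adjusted p = 0.981). The difference of -0.0766 percentage points was -0.144 without UPEC mouse 1, -0.0163 without UPEC mouse 2 and -0.0466 with each clonotype counted once. Between compartments the mismatch frequency was 0.294% ± 0.137 extravascular and 0.133% ± 0.113 intravascular in the 4 mice with at least 5 members in both libraries, higher in 4 of 4 (exact signed-rank test, p = 0.125). The 12 members with mismatches near the start of the sequence were all extravascular, but they came from 6 mice and so cannot all enter this difference between 4 mice. The difference was 0.161 percentage points over the complete placement, 0.0961 with the first 30 nt left out, and 0.0618 with each clonotype counted once. With 1 member as the minimum 10 mice could be compared, and the difference of 0.206 percentage points passed the exact test (adjusted p = 0.0195). With the first 30 nt left out as well it was 0.107 percentage points, from 0.206% ± 0.101 and 0.0988% ± 0.101 (SD, n = 10, exact signed-rank test, adjusted p = 0.0195, higher in 9 of 10 mice), and several of these intravascular libraries held only 3 to 5 members. Extravascular libraries were also the deeper ones on average over all mice, with 10769 ± 4888 against 2937 ± 964 reads in PBS mice and 5110 ± 2670 against 3082 ± 2013 in UPEC mice (SD, n = 6 and 5), and the part of depth in this difference was not tested.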

How the data were processed

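Per the labels and the study's methods, the authors sequenced barcoded Igh amplicons by 300 bp paired MiSeq, filtered reads with QUASR 6.X, merged pairs, required over 80% agreement among reads with 1 barcode, matched constant regions to IMGT 3.1.15 and V and J genes by BLAST 2.7.1, dropped sequences seen in 1 read and ran IMGT/V-QUEST 3.4.15 on what was left. The deposited tables hold sequences, segment names, positions and, in each identifier, read counts for 9 isotypes, with no normalization.

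The members, lists and tests were chosen with earlier results of these data known. CDR3s were named if they occurred in at least 3 libraries or 10 sequences, nucleotide forms for the leading CDR3s, and the 3 segments with the most similar share. V mismatches were counted in a gapless placement on the GRCm38 segment of the same name (at least 100 nt, at most 15% mismatches), found for 78 of 80 names, and 22 members had no value. Exact signed-rank tests compared libraries of 1 mouse or members with other sequences of a library, exact Mann-Whitney U tests compared treatments (smallest p 0.00433), and measures were adjusted by the Benjamini-Hochberg method in families of 10 or 5. limma 3.58.1 (R 4.3.3) was run on log2 shares with a prior count of 0.5 scaled to the library total, since tallies of distinct sequences are not read counts. It was also tried on simulated data. Their spread between libraries and size of change were set in advance and not estimated from these mice. That trial therefore does not show which differences could be found here. Python 3.11.15, pandas 2.3.3, SciPy 1.17.1 and Biopython 1.88 did the rest. The 2 libraries of a mouse are paired by the labels. Their deviations from the group means over 18 V segments correlated between -0.41 and 0.54, and 2 of 11 libraries matched their own mouse best. Mice of a group are separate animals. The number of cells sorted was not used here, so depth is given as sequences and reads.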

Additional observations from a re-analysis of the deposited data

Results flagged for a closer look

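Of 24 groups of 5 or 6 mice checked for a sample far from the others, 4 had one. Chance gives about 1 in 20 for measures without ties. UPEC mouse 5 accounted for 3 of them in the UPEC extravascular group. Its Ighj1 share of Ighv11-2 was 91.3% where the other 4 mice had 100%, so that any lower value would have stood apart. Its insert size was 1.96 where the next highest was 0.375, and its share of N-free junctions was 39.1% where the next lowest was 87.5%. These 3 values come from the same 23 sequences of 14 clonotypes and are not independent. In the PBS extravascular group, mouse 3 had 14.7 Ighv11-2 sequences a clonotype where the next highest was 6.10, with 60 of its 88 sequences in 1 clonotype.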

How the results depend on the processing

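Of 406 alternatives for 30 results, 55 had no test or under 6 pairs and could cross no threshold. Of the other 351, 325 kept direction and side of the threshold. Merging sequences 1 nt apart took the PBS compartment difference from 2.91 to 5.21 percentage points, the UPEC one from 1.27 to 2.25, the UPEC minus PBS share from -0.61 to -2.49 extravascular and from 1.03 to 0.464 intravascular, the UPEC minus PBS compartment difference from -1.64 to -2.95, the mismatch difference between Ighv11-2 and other segments to 0.0845 points, sequences per clonotype to 1.65 more (now passing) and reads per sequence to -4.46 (reversed, now passing). The UPEC minus PBS extravascular share became 0.111 with reads in place of sequences and 0.428 with at least 3 reads per sequence, and the compartment difference -0.82 and -0.54. Counting each clonotype once gave an intravascular UPEC minus PBS share of 0.420, an Ighd difference of -14.8, a compartment difference of 0.0618 in mismatch frequency, a mismatch difference of 0.0317 from other segments, UPEC minus PBS differences of -0.24 in insert size and 10.4 in N-free junctions, and compartment differences of 0.699 in insert size, -12.1 in N-free junctions and -12.4 in canonical share. With 1 member as the minimum the compartment difference in canonical share was -8.70 and that in mismatch frequency 0.206 (passing), or 0.107 with the first 30 nt also left out (passing). Leaving out Ighv12-3 made the CDR3 length difference -0.274 (no longer passing), and leaving out the first 30 nt the mismatch difference -0.10 (passing) and the compartment difference in mismatches 0.0961. Both alternatives were chosen after seeing the data. The cause of each was not tested.

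Leaving out 1 mouse at a time moved the UPEC compartment difference in share between 0.668 and 1.80 points, the UPEC minus PBS share between -1.15 and -0.028 extravascular and between 0.0548 and 1.42 intravascular, and the UPEC minus PBS compartment difference between -2.24 and -1.07. It moved the mismatch difference from other segments between -0.028 and 0.0246, reads per sequence between -0.019 and 0.423, sequences per clonotype between 0.215 and 1.42, Igha share between -2.86 and -1.24, Ighd share between -7.71 and -4.49, the UPEC minus PBS differences between -0.17 and 0.319 in insert size, between -8.13 and 7.09 in N-free junctions and between -0.23 and 19.5 in canonical share, and the compartment differences between -1.71 and 3.57 in Ighj1 share, between -0.58 and 0.307 in insert size, between -3.23 and 4.33 in N-free junctions and between -5.17 and 4.83 in canonical share. The limma difference of Ighv11-2 between treatments ranged from -0.44 to 0.16 (-0.92 with median centring and all mice) and the segments called from 0 to 1, the 1 call coming without PBS mouse 6 or without UPEC mouse 3.

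PBS and UPEC mice share numbers but no animal. With a replicate block on the number, the extravascular share differed by -0.999 points (exact p = 0.125), the intravascular share by 0.826 (exact p = 1) and the limma difference was -0.31 (adjusted p = 0.642), so no call changed. Same-numbered libraries correlated between -0.33 and 0.349 extravascular and between -0.56 and -0.012 intravascular over 18 segments, and 1 of 5 and 0 of 5 matched their own number best. Without the block by mouse the UPEC compartment difference of 1.27 points had an exact p of 0.222. Among the 11 intravascular libraries, 9 held fewer than 10 members, and the part of depth in this was not tested.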
